A study of Rattus norvegicus with 24 samples.

Results

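The 9 genes described here, Mbp, Mog, Mobp, Ugt8, Ermn, Opalin, Cldn11, Mag and Pdgfra, encode proteins of central myelin and of the cells that make it. They were chosen by symbol, as 9 of the 14217 genes that the annotation of the array names alone on at least 1 probe set, and they are covered by 17 of 31042 probe sets. A gene was represented by its brightest probe set, the one with the highest mean log2 intensity over all arrays, and its other probe sets served as a check. Intensities of different probe sets were not compared with each other, because probes differ in how strongly they bind.

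Transcript levels came from 24 Affymetrix arrays for the rat. In the spontaneously hypertensive rat (SHR), 5 arrays held the rostral ventrolateral medulla (RVLM), 4 the supraoptic nucleus (SON), 5 the paraventricular nucleus (PVN) and 5 the neurointermediate lobe of the pituitary (NIL). A further 5 arrays held the RVLM of the normotensive Wistar-Kyoto rat (WKY), so the strains were compared in the RVLM alone. Every array carried 1 pool of tissue from 5 males aged 10 to 13 weeks (10 to 12 weeks for NIL array 2), with no treatment named in the labels, and n below counts such pools, whose number limits the precision. Deposited intensities had been brought to a 2% trimmed mean of 100 on each array. The labels of the structures were set against marker genes. Summed intensity of 6 magnocellular neuron markers, such as Avp and Oxt, was 13370 to 15220 in the SON and 10470 to 13600 in the PVN, against 1591 to 1725 in the SHR RVLM. Summed intensity of 5 melanotroph markers was 3875 to 5260 in the NIL and at most 2217 on any SHR array of the PVN, SON or RVLM. No marker list was set for the RVLM. PVN array 3 stood apart: its mean Spearman correlation with the other PVN arrays was 0.912, against 0.938 to 0.970 for every other array with its own group. Counts over the 9 genes that use the PVN are therefore given with and without it.

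Oligodendrocytes wrap axons of the central nervous system in myelin, a stack of lipid-rich membrane that speeds conduction. Mbp and Mobp hold the cytoplasmic faces of the membrane together, Cldn11 builds the tight junction strands between wraps, and Mag and Mog sit on the inner and outer surfaces of the sheath. Ugt8 makes galactosylceramide, a main myelin lipid. Opalin and Ermn are made by mature oligodendrocytes, whereas Pdgfra is the growth factor receptor of their progenitors and is lost as they mature. Cldn11 and Pdgfra are also made in the meninges, the membranes that cover the brain. SOX10 and MYRF are transcription factors that switch on myelin genes in these cells.

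Because 8 of the 9 genes moved together across structures, their promoters were read from RefSeq (build GRCr8), which held a window for 7 of the 9. The 250 bases before the annotated start were searched on both strands for a SOX motif, ACAAAG, and a MYRF motif, CTGGNAC. The 3 windows shown held the most matches or held both motifs. Capitals mark the matches, on either strand, and the sequences run 5′ to 3′ along the gene.
Mobp, chr8:128746982-128747231, plus strand: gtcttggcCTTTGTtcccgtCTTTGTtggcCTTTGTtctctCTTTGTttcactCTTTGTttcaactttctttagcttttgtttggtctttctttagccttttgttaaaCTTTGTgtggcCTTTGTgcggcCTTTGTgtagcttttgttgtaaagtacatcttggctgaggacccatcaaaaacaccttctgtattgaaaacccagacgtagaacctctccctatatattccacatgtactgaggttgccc
Opalin, chr1:249858191-249858440, minus strand: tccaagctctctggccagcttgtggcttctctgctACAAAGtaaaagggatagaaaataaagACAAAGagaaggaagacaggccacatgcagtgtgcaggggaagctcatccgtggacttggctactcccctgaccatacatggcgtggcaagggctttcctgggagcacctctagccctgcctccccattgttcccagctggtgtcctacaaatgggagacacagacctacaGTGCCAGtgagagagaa
Mag, chr1:95291045-95291294, minus strand: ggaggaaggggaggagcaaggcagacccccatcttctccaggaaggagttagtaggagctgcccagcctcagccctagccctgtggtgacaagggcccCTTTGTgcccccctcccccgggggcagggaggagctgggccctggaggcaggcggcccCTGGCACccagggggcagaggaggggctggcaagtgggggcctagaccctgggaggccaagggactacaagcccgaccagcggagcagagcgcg
The Mobp window held the SOX motif 8 times, all read on the opposite strand as CTTTGT, the first letters lying 242 to 120 bases before the start. The Opalin window held 2 SOX matches and 1 MYRF match, and the Mag window held 1 of each. Of 33469 RefSeq windows of this length, 16.3% held the SOX motif and 14.8% the MYRF motif. The Cldn11 window held 1 MYRF match and no SOX match. Of the Mbp windows, 1 held only a MYRF match and the other only a SOX match. The windows of Ugt8 and Pdgfra held neither. A match describes the letters and is no evidence of binding.

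For 8 of the 9 genes, all but Pdgfra, transcript levels were highest in the RVLM and lower in both hypothalamic nuclei. In the pituitary lobe Mobp, Ugt8, Ermn, Opalin and Mag lay under the 40th percentile of all 5 arrays and Mog under that of 4, whereas Mbp and Cldn11 kept a measurable level. Against the NIL, 8 of the 9 genes were higher in the SHR RVLM and 0 lower, where 30.2% of 10596 genes were called higher and 37.6% lower (limma, Benjamini-Hochberg adjusted p under 0.05). Against the PVN 8 of 9 were higher, with a background of 19.3%, and against the SON 8 of 9 were higher, with a background of 20.3%. The gene that did not follow was Pdgfra. Without PVN array 3, 8 of 9 were again higher in the RVLM than in the PVN, with a background of 21.5%. In that fit the log2 differences were 3.93 for Ugt8, 3.54 for Ermn, 3.45 for Mog, 3.38 for Mobp, 2.61 for Cldn11, 2.33 for Opalin, 2.04 for Mag and 1.62 for Mbp. The median log2 difference over the 9 genes was 5.54 for RVLM minus NIL, 2.29 for RVLM minus PVN and 2.43 for RVLM minus SON, beside medians of -0.10, -0.07 and -0.07 over all genes tested. With the 5 genes that were too dim in the NIL to be measured set at the bounds given below, the first of these medians was 4.94, with Mog kept at its fitted value. In such tissue samples, fewer oligodendrocytes and less RNA per oligodendrocyte cannot be told apart.

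**Figure D1:**
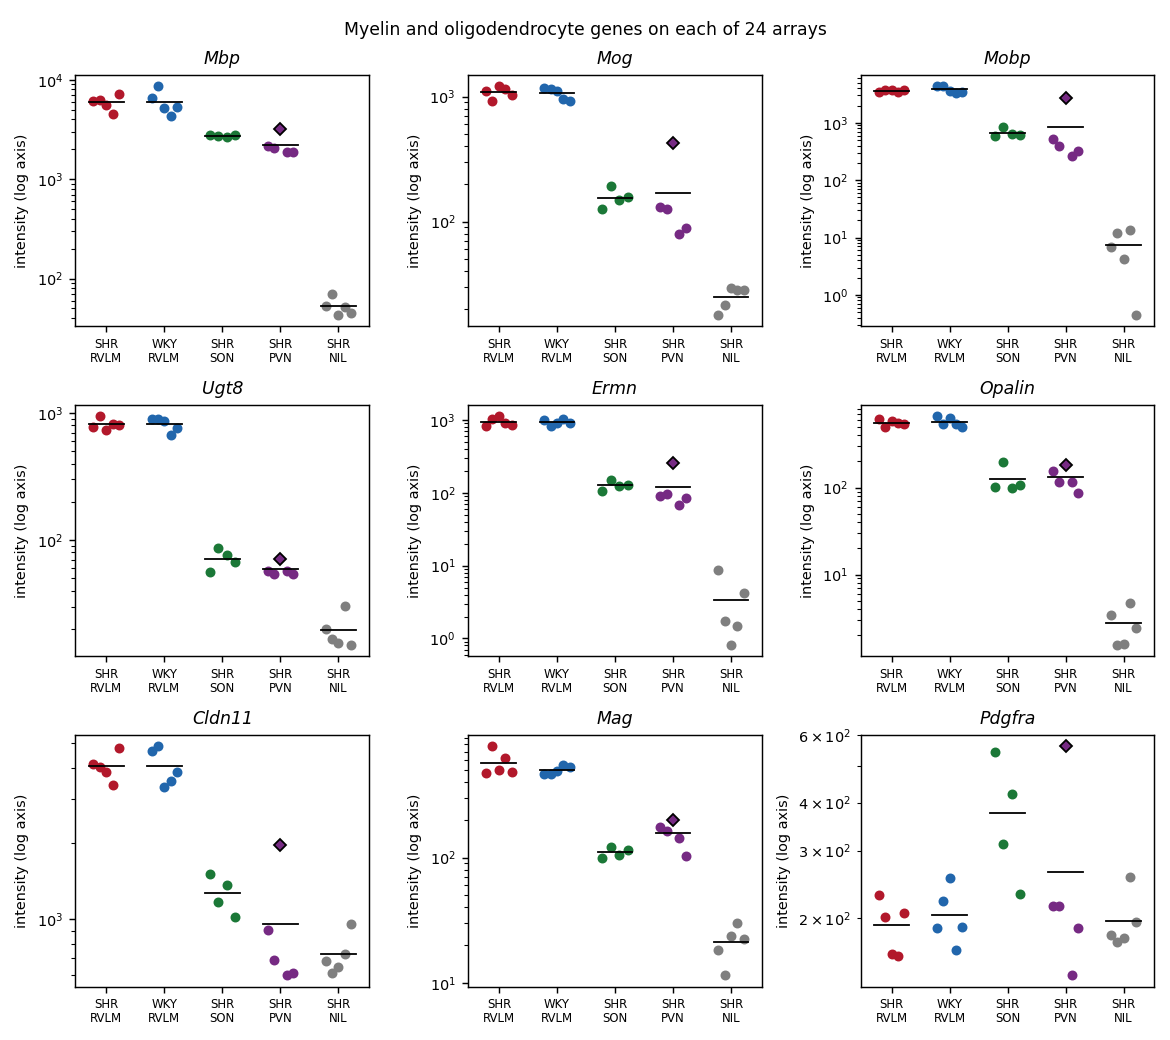
Intensity of each gene (log axis) on each of the 24 arrays, by group; points are arrays, bars are group means and the outlined diamond is PVN array 3. For every gene but Pdgfra, all RVLM arrays lie above all SON, PVN and NIL arrays, as they do for 17%, 12% and 23.6% of genes.

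Mbp encodes the basic protein that compacts the membrane. Its intensity was 6151, 6252, 5553, 4484 and 7192 in the SHR RVLM and 2816, 2729, 2666 and 2772 in the SON. It was 2169, 2060, 3184, 1867 and 1893 in the PVN and 52.7, 70.3, 43.2, 51.9 and 45.3 in the NIL. The RVLM, the 2 hypothalamic nuclei and the NIL formed levels that did not overlap, and the SON and PVN overlapped. The RVLM was 2.25-fold above the SON (log2 1.17, SE 0.175, adjusted p = 1.36e-05), 2.77-fold above the PVN (log2 1.47, SE 0.165, adjusted p = 2.93e-07) and 120.2-fold above the NIL (log2 6.91, adjusted p = 7.79e-19).

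Mobp, a second protein of the cytoplasmic faces, had intensities of 3423, 3684, 3794, 3460 and 3676 in the SHR RVLM. It had 596, 834, 641 and 625 in the SON and 516, 390, 2664, 267 and 327 in the PVN. The NIL arrays had 6.89, 11.9, 4.21, 13.8 and 0.451. PVN array 3 lay well above the rest of its group, yet under every RVLM array. On another Mobp probe set, 1368263_a_at, it had 567, above SHR RVLM arrays 3 and 5, at 566 and 557. On the brightest probe set the RVLM was higher by 2.51 on the log2 scale than the SON (SE 0.708, adjusted p = 0.00624) and by 2.78 than the PVN (SE 0.668, adjusted p = 0.00178). Without PVN array 3 the difference from the PVN was 3.38 (SE 0.584, adjusted p = 4.74e-05). On every NIL array Mobp lay under the 40th percentile of the array, about 27.3, so its difference from the NIL is given as a bound: the RVLM was at least 136-fold higher.

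The 2 surface glycoproteins followed the same order. Mog had 1100, 921, 1216, 1158 and 1036 in the SHR RVLM, 127, 192, 148 and 156 in the SON, and 130, 125, 423, 79.9 and 88.8 in the PVN. In the NIL it had 18, 21.4, 29.6, 28.4 and 28.2, under the 40th percentile on 4 of 5 arrays, so no fold against the NIL is given. The RVLM exceeded the SON 7.41-fold and the PVN 8.16-fold, and PVN array 3 was again the highest of its group. Mag had 476, 772, 501, 620 and 480 in the SHR RVLM, 99.2, 122, 105 and 114 in the SON, and 174, 162, 198, 142 and 103 in the PVN. Its NIL values were 18.1, 11.5, 23.6, 29.8 and 22.3. For Mag, 4 of 5 PVN arrays lay above every SON array, and the RVLM exceeded the SON 5.39-fold, the PVN 3.81-fold and the NIL at least 21.1-fold.

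The markers of mature oligodendrocytes gave a similar picture. Opalin, a membrane protein, had 608, 498, 583, 559 and 538 in the SHR RVLM, 102, 196, 100 and 108 in the SON, and 155, 117, 181, 115 and 87.2 in the PVN. In the NIL it had 3.43, 1.55, 1.57, 4.76 and 2.45. The SON and PVN arrays were interleaved, and both lay far under the RVLM. Ermn, a cytoskeletal protein of the sheath, had 831, 1025, 1135, 902 and 853 in the SHR RVLM, 107, 151, 124 and 130 in the SON, and 91.6, 96.5, 259, 67.6 and 85.9 in the PVN. Its NIL values were 8.81, 1.74, 0.814, 1.49 and 4.21. The RVLM exceeded the PVN 4.54-fold for Opalin and 9.22-fold for Ermn, and the NIL at least 20.9-fold and at least 35.5-fold.

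Ugt8 showed the widest gap between the RVLM and the hypothalamus among the 9 genes, on their brightest probe sets. Its intensity was 779, 944, 732, 823 and 809 in the SHR RVLM, 56.6, 87.1, 75.8 and 66.8 in the SON, and 57.6, 54.2, 71.1, 57.6 and 54.2 in the PVN. In the NIL it was 20.1, 16.6, 15.6, 30.1 and 15. The RVLM was 14.4-fold above the PVN (log2 3.85, SE 0.163, adjusted p = 8.99e-14), 12.2-fold above the SON (log2 3.61, SE 0.172, adjusted p = 1.18e-12) and at least 30.6-fold above the NIL. A second Ugt8 probe set had intensities of 0.163 to 8.63 on all 24 arrays and did not pass the filter on low values.

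Cldn11, like Mbp, kept a measurable level in the NIL. On the brightest probe sets, Cldn11 had the smallest difference between the RVLM and the NIL of the 8 sheath genes. It had 4147, 4027, 3849, 3426 and 4789 in the SHR RVLM, 1508, 1174, 1364 and 1020 in the SON, and 904, 687, 1967, 599 and 610 in the PVN. The NIL had 683, 610, 643, 725 and 956. The PVN and NIL arrays overlapped, and all SON arrays lay above all NIL arrays. The RVLM exceeded the NIL by 2.59 on the log2 scale (SE 0.251, adjusted p = 7.24e-09), the PVN 4.90-fold and the SON 3.39-fold. Summed intensity of 7 meningeal markers, such as Ptgds, Col1a2 and Dcn, was 2617 to 4067 in the SHR RVLM, 7523 to 12170 in the SON and 5949 to 7348 in the NIL. In the PVN it was 611 to 828 on 4 arrays and 10160 on array 3. Its part in the Cldn11 and Pdgfra values was not tested.

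Pdgfra did not share the gradient. It had 230, 201, 161, 159 and 206 in the SHR RVLM, 543, 313, 421 and 231 in the SON, and 215, 215, 561, 142 and 189 in the PVN. In the NIL it had 181, 173, 177, 256 and 195. The RVLM, the NIL and 4 PVN arrays covered one range, while 3 SON arrays and PVN array 3 lay above it. RVLM minus NIL was 0.05 on the log2 scale (95% interval -0.53 to 0.63, adjusted p = 0.873) and RVLM minus PVN was -0.25 (95% interval -0.83 to 0.33, adjusted p = 0.489). The second of these was 0.08 without PVN array 3 (adjusted p = 0.770). Pdgfra fell in the RVLM against the SON, by 0.84 on the log2 scale (SE 0.296, adjusted p = 0.0246), where 25.4% of genes were called lower. That call was lost when SHR RVLM array 3 (adjusted p = 0.0504), SHR RVLM array 4 (0.0521), SON array 1 (0.112) or SON array 3 (0.069) was left out.

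**Figure D2:**
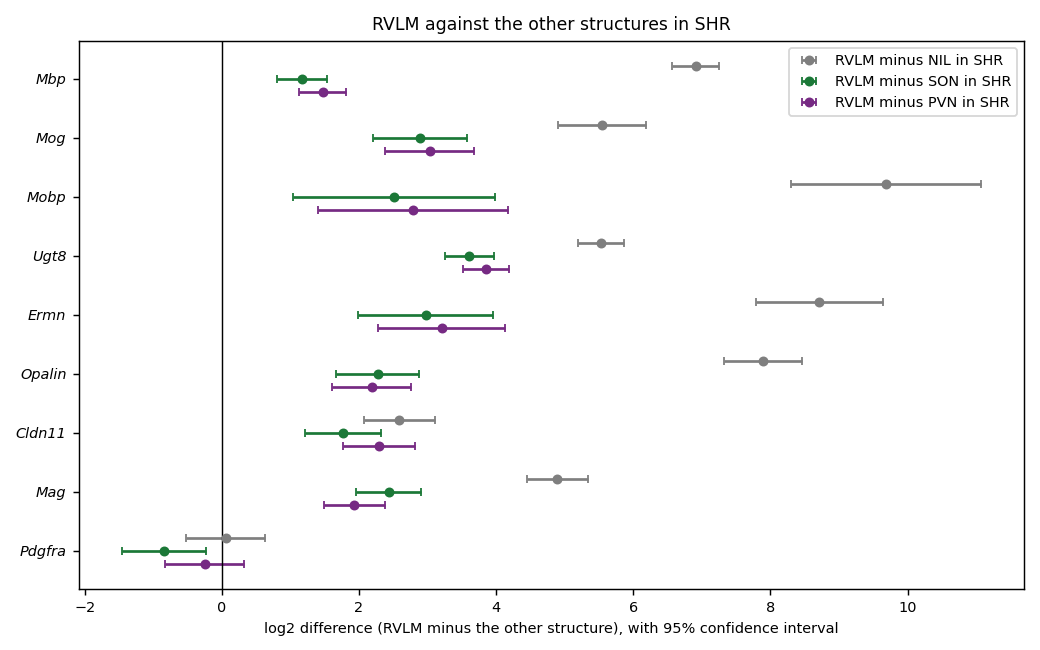
Log2 difference of each gene between the SHR RVLM and the NIL, SON or PVN, with its 95% confidence interval from the fit over 19 SHR arrays. The intervals of 8 genes lie above 0 in all 3 comparisons and those of Pdgfra reach 0 or lie under it, while for Mobp, Ugt8, Ermn, Opalin and Mag the fitted value against the NIL rests on dim readings and is no bound, as it does for Mog on 4 of 5 NIL arrays.

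Between the hypothalamus and the pituitary lobe the sheath genes differed again. In the SON all 9 genes were higher than in the NIL, where 24.7% of genes were called higher, and the smallest of these differences were 0.82 for Cldn11 (adjusted p = 0.0137) and 0.90 for Pdgfra (adjusted p = 0.0156). The Pdgfra call was lost without SON array 1, with a difference of 0.69 and an adjusted p of 0.0767. In the PVN 7 of 9 genes were higher than in the NIL, with a background of 27.4%, and the count was 7 also without PVN array 3, with a background of 28.1%. Cldn11 and Pdgfra did not pass, with log2 differences of 0.29 (adjusted p = 0.334) and 0.31 (adjusted p = 0.367), and of -0.02 and -0.03 without PVN array 3. Mbp stood 53.4-fold above the NIL in the SON and 43.4-fold in the PVN, and Mobp at least 23.8-fold and at least 19.7-fold. Of the other genes dim on every NIL array, Ugt8 was at least 2.52-fold and 2.13-fold higher, and Mag at least 3.9-fold and 5.53-fold. For Ermn these bounds were 4.52-fold and 3.84-fold, and for Opalin 4.33-fold and 4.61-fold. In fits of the arrays of each pair alone, Ermn and Opalin did not pass the filter on low values. The counts were then 7 in the SON and 5 in the PVN.

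The PVN level of Mobp, Mog, Ermn, Pdgfra and Cldn11 in particular depended on 1 array. On the brightest probe sets PVN array 3 was the highest PVN array for 9 of 9 genes, as it was for 29.4% of 10573 genes. It lay above every SON array for 7 of 9, all but Ugt8 and Opalin. On the Mbp probe set 1387341_a_at it was not the highest, at 196 where the others reached 226. Its intensity over the mean of the other 4 PVN arrays was 7.11 for Mobp, 4.00 for Mog, 3.04 for Ermn, 2.95 for Pdgfra and 2.81 for Cldn11. It was 1.59 for Mbp, 1.53 for Opalin, 1.36 for Mag and 1.27 for Ugt8, and 4.62% of genes exceeded a ratio of 2. The meningeal sum of this array, given above, lay far over those of the other PVN arrays. Summed astrocyte markers were 17700, against 12570 to 14410 on the other PVN arrays, and summed pituicyte markers, which belong to the glia of the pituitary, were 2153, against 1126 to 1278. Summed Schwann cell markers were 1027, against 447 to 595, and summed markers of endothelium and pericytes were 1283, against 900 to 1013. All 5 sums were higher on array 3 than on any other PVN array. Summed neuron markers, at 11220 against 10230 to 11590, and summed microglia markers, at 965 against 854 to 1071, lay within the range of the others. Which cells were in the pool was not tested. Single markers are given by their highest value in the PVN, which is not tied here to an array. Of the meningeal markers, Ptgds reached 4749 (median 371), Col1a2 1326 (28.1), Lum 336 (23.0) and Ogn 1152 (54.5). Dcn reached 384 (47.9), Igf2 2069 (169.5) and Col1a1 149 (40.8). Of the pituicyte markers in the PVN, Vim reached 1787, against a median of 703, Col25a1 428 against 326 and Scn7a 141 against 111. Rax, Nkx2-1 and Adm reached 19.8, 65.6 and 34.9. Of the Schwann cell markers, Mal reached 507 and Pmp22 396, both also in the list of myelin proteins. Ngfr, not in that list, reached 82.7 against a median of 14.8. Egr2, Prx and Cadm4 reached 35.0, 30.0 and 17.8. What part of the myelin values moved with these markers was not tested.

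With all arrays, 0 of 9 genes differed between the PVN and the SON, where 16.1% of genes were called in either direction (limma, 19 SHR arrays). At an unadjusted limma p under 0.05 the count was 1, Mag, with a log2 difference of 0.50 (adjusted p = 0.146). Without PVN array 3, 4 of 9 were lower in the PVN, with a background of 11.4% called lower. Mbp fell by 0.45 (adjusted p = 0.0407), Mog by 0.56 (adjusted p = 0.0448), Cldn11 by 0.85 (adjusted p = 0.00144) and Pdgfra by 0.92 (adjusted p = 0.00312). In a fit of the PVN and SON arrays alone, again without array 3, 5 of 9 were lower, with a background of 9.96% called lower: Cldn11, Ermn, Mbp, Mobp and Pdgfra. There Mobp fell by 0.86 (adjusted p = 0.00957) and Ermn by 0.57 (adjusted p = 0.0319). The second of these fits was not among the planned settings. Mag kept the opposite sign, at 0.39 without the array, and did not pass (adjusted p = 0.233).

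**Figure D3:**
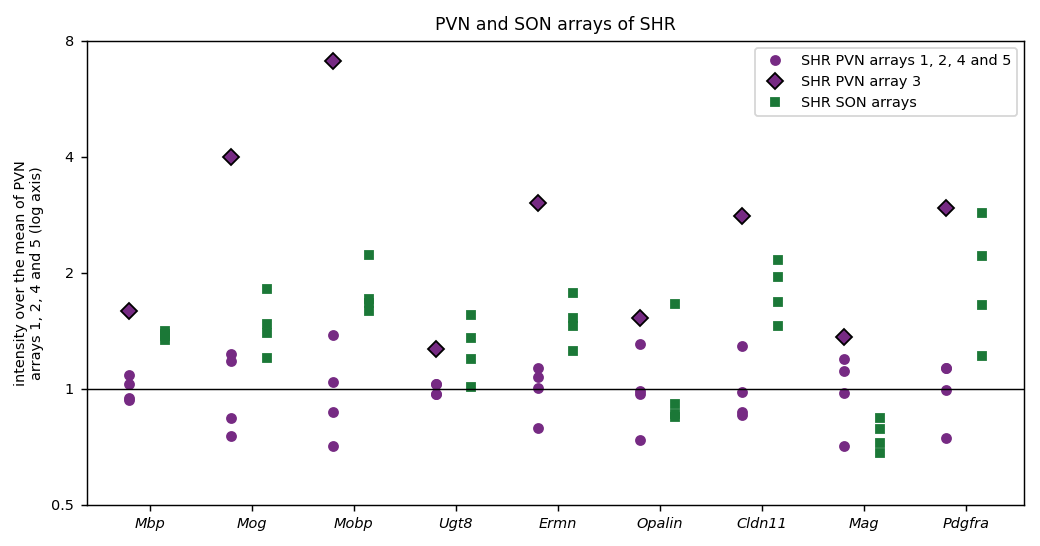
Intensity of each gene on the PVN and SON arrays of SHR, divided by the mean of PVN arrays 1, 2, 4 and 5 (log axis); circles are those arrays, diamonds PVN array 3 and squares the SON arrays. The diamond is the highest PVN point for all 9 genes and reaches 7.11 for Mobp.

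Between the strains, no brightest probe set of the 9 genes differed in the RVLM beyond the spread between pools. Of the 9 genes, 0 were called between SHR and WKY, where 1.41% of 10400 genes were called (limma, 10 RVLM arrays), and 0 of 9 had an unadjusted p under 0.05. Log2 differences ran between -0.12 for Pdgfra and 0.14 for Mag, with a median of -0.03, the same as the -0.03 over all genes. In WKY, Mbp had 6632, 8682, 5183, 4317 and 5333, a range that took in all 5 SHR pools, and its difference was -0.03 (95% interval -0.39 to 0.33). Mog had 1173, 1142, 1116, 963 and 924 in WKY and a difference of 0.00 (95% interval -0.22 to 0.22). Ugt8 had 891, 892, 870, 675 and 761 in WKY and a difference of -0.03 (95% interval -0.22 to 0.17). The arrays of the 2 strains overlapped for each of the 9 genes. Over all 9, the 95% intervals stayed between -0.39 and 0.40, so differences of 1.32-fold or more lay outside them.

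A single Mobp probe set was called between the strains. Mobp has 3 probe sets, and on 1368263_a_at the intensity was 629, 722, 566, 648 and 557 in SHR, against 1455, 1395, 1348, 1319 and 1257 in WKY. The arrays of the strains did not overlap. The means were 624 ± 67.3 in SHR and 1355 ± 75.3 in WKY (SD, n = 5 each), a log2 difference of -1.15 (SE 0.0862, adjusted p = 4.17e-07), where 0.854% of 18625 probe sets were called lower. On the brightest Mobp probe set, 1370434_a_at, SHR had the values given above and WKY had 4391, 4398, 3610, 3275 and 3424, a difference of -0.10 (95% interval -0.34 to 0.13, adjusted p = 0.831). On the third, 1370500_a_at, SHR had 877, 963, 816, 764 and 783 and WKY had 1154, 1152, 1175, 787 and 770, a difference of -0.27 (adjusted p = 0.415). The 95% interval of that difference, not adjusted for the number of probe sets tested, was -0.51 to -0.03. This probe set thus leaned lower in SHR without being called, and its arrays overlapped between the strains. In a fit of all 24 arrays the difference on 1368263_a_at was again -1.15, but its adjusted p was 0.409, where leaving out single RVLM arrays gave 1.03e-07 to 5.82e-06.

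The ratio of 2 Mobp probe sets on the same array does not depend on how that array was scaled. The ratio of 1368263_a_at to 1370434_a_at was 0.149 to 0.196 in the SHR RVLM and 0.317 to 0.403 in the WKY RVLM, without overlap. An exact permutation test gave p = 0.00794, the smallest that 5 against 5 arrays allow (two-sided, 0.0119 after Benjamini-Hochberg adjustment over 3 ratios). In SHR the same ratio was 0.114 to 0.148 in the SON and 0.166 to 0.269 in the PVN, also under the WKY range. The ratio of 1368263_a_at to 1370500_a_at was 0.693 to 0.848 in the SHR RVLM and 1.15 to 1.68 in the WKY RVLM (exact permutation p = 0.00794, adjusted 0.0119). On that ratio the SON, at 1.30 to 1.75, and the PVN, at 1.59 to 3.29, were not under the WKY range, although both are SHR tissue. The ratio of 1370500_a_at to 1370434_a_at did not pass between the strains (exact permutation p = 0.175). These ratios were chosen after the probe set values had been seen, and the cause of the difference was not tested.

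**Figure D4:**
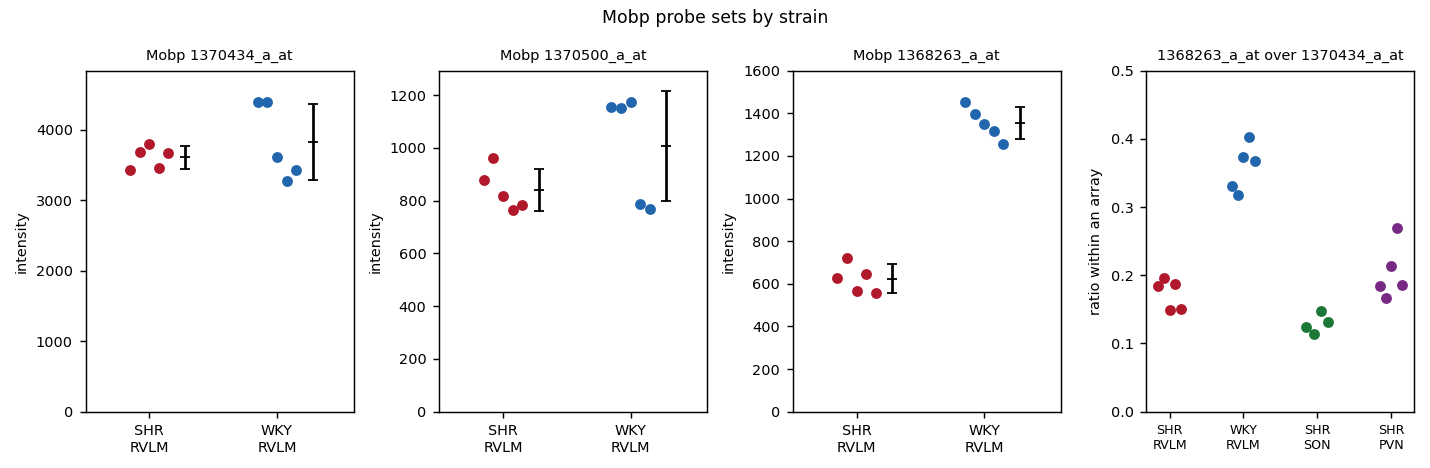
Intensity of the 3 Mobp probe sets in the SHR and WKY RVLM, with mean and SD beside the points, and, in the right panel, the ratio of 1368263_a_at to 1370434_a_at on each array of 4 groups. The strains separate on 1368263_a_at, with means of 624 in SHR and 1355 in WKY, and overlap on the other two.

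The probe sets of Mbp agreed on the direction from the RVLM to the other structures and not on its size. On 1387341_a_at, the SHR RVLM had 4837, 5699, 4866, 4109 and 5366, the SON 182, 374, 268 and 129, and the PVN 226, 204, 196, 122 and 157. The RVLM was higher by 4.57 than the SON and by 4.86 than the PVN, against 1.17 and 1.47 on the brightest probe set. On 1383479_at the differences were 1.48 and 1.35. The ratio of 1387341_a_at to 1368810_a_at was 0.746 to 0.916 in the SHR RVLM, 0.797 to 0.999 in the WKY RVLM, 0.0467 to 0.137 in the SON and 0.0616 to 0.104 in the PVN. On 1387341_a_at the hypothalamus therefore stood at a far smaller share of the RVLM level. Against the NIL, 1383479_at gave 1.47 for the RVLM (adjusted p = 4.60e-08), where 1368810_a_at gave 6.91. It gave -0.01 for the SON (adjusted p = 0.982) and 0.13 for the PVN (adjusted p = 0.523), where 1368810_a_at gave 5.74 and 5.44. The intensity on 1383479_at was 107 to 159 in the NIL, 121 to 158 in the SON and 109 to 211 in the PVN. All 5 NIL arrays were dim on 1387341_a_at, so there the SON was at least 7.85-fold and the PVN at least 6.42-fold higher than the NIL. Which Mbp transcripts each probe set detects is not given in the sources used here.

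**Figure D5:**
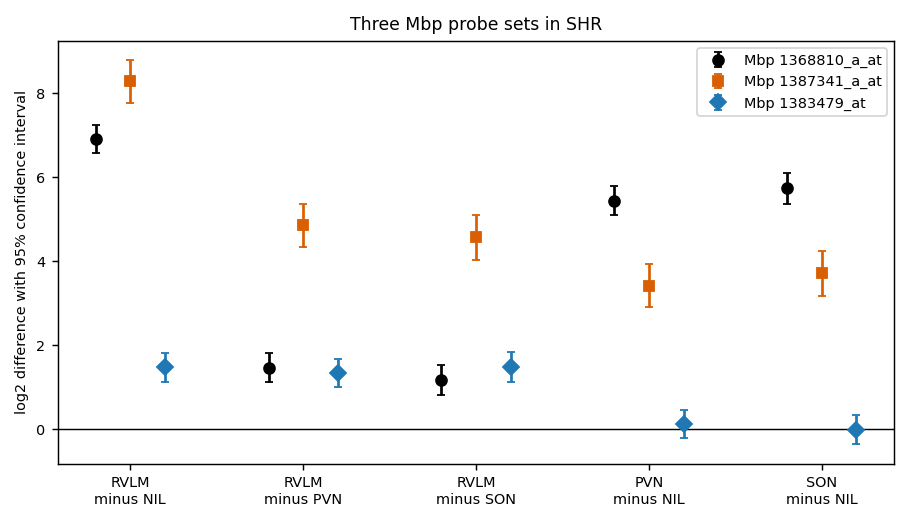
Log2 difference between structures of SHR on each of the 3 Mbp probe sets, with its 95% confidence interval. For RVLM minus PVN the values were 1.47, 4.86 and 1.35, and against the NIL the fitted values of 1387341_a_at rest on dim readings and are no bound.

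The second Cldn11 probe set, 1369609_at, gave the same calls for RVLM against each structure, with log2 differences of 3.16 to the NIL, 2.90 to the PVN and 2.24 to the SON. It also called the PVN lower than the SON with all arrays in the fit, by 0.65 (adjusted p = 0.0234; 6.54% of probe sets were called lower), where the brightest probe set gave -0.53 (adjusted p = 0.195). On this probe set PVN array 3 had 62.7 and the other PVN arrays had 36.1 to 55.8, against 59.8 to 101 in the SON. The second Ermn probe set, 1385547_at, gave 3.59 for RVLM minus PVN and 3.35 for RVLM minus SON.

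Other myelin genes were higher in the RVLM as well. Of 14 further genes of myelin proteins that were tested, 13 were higher in the RVLM than in the PVN, 14 than in the SON and 13 than in the NIL, with 0 lower in each. The shares of all genes called higher, 19.3%, 20.3% and 30.2%, are the background here too. Without PVN array 3 the count against the PVN was again 13 higher and 0 lower, with backgrounds of 21.5% and 26.7%. The median log2 difference was 1.15 from the PVN and 1.57 from the SON. Hapln2, which links the matrix at nodes of Ranvier, averaged 489 ± 68.4 in the RVLM (SD, n = 5) and 37.4 ± 11.1 in the PVN (n = 5), a log2 difference of 3.80 (adjusted p = 1.34e-12). For Hapln2, 1 of 5 PVN arrays was dim. Pmp22, a myelin protein best known from Schwann cells, averaged 1275 ± 171 in the RVLM and 207 ± 109 in the PVN, a difference of 2.79 (adjusted p = 2.95e-09). The orphan receptor Gpr37 exceeded the SON by 2.50 and the NIL by 4.63. Mal, a raft proteolipid of the sheath, exceeded the NIL by 5.11, with 1 of 5 NIL arrays dim.

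Enzymes that supply myelin with lipid or serve its metabolism were mostly higher too. Of 10 enzymes, 10 were higher in the RVLM than in the PVN, also without PVN array 3, and 9 than in the SON. Against the NIL 9 were higher and 1 lower. Of all genes, 19.3% were called higher than in the PVN, 21.5% without PVN array 3, and 20.3% higher than in the SON. For the NIL 30.2% were called higher and 37.6% lower. Gal3st1, which adds sulfate to the product of Ugt8, averaged 219 ± 25.0 in the RVLM and 38.0 ± 8.73 in the PVN (SD, n = 5 each), a log2 difference of 2.60 (adjusted p = 3.97e-09). For Gal3st1, 2 of 5 PVN arrays were dim. Fa2h, which hydroxylates the fatty acids of these lipids, differed by 1.86 from the PVN and by 2.06 from the SON. Enpp2, the lipid hydrolase autotaxin, averaged 2333 ± 182 in the RVLM and 381 ± 25.1 in the SON (n = 4), a difference of 2.69 (adjusted p = 9.07e-10). Car2, the carbonic anhydrase of oligodendrocytes, differed by 1.97 from the PVN and by 3.88 from the NIL.

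Transcription factors of the lineage were less uniform. Of 6 tested, 4 were higher and 1 lower in the RVLM than in the PVN, 5 higher and 0 lower than in the SON, and 5 higher and 1 lower than in the NIL. Of all genes, 19.3% were called higher and 26.3% lower than in the PVN, and 20.3% and 25.4% than in the SON. Against the NIL these shares were 30.2% and 37.6%. Without PVN array 3 the counts against the PVN were again 4 and 1, with backgrounds of 21.5% and 26.7%. Olig1 averaged 819 ± 23.1 in the RVLM, 337 ± 132 in the PVN and 12.2 ± 4.24 in the NIL (SD, n = 5 each), and its difference from the PVN was 1.41 (adjusted p = 5.50e-05). All 5 NIL arrays were dim for Olig1. Sox10 exceeded the PVN by 1.71 (adjusted p = 0.00778, 1 of 5 PVN arrays dim) and the SON by 1.37 (adjusted p = 0.0384). Myrf exceeded the SON by 1.44 and the NIL by 3.25, with 2 of 5 NIL arrays dim. Tcf7l2, a Wnt effector that neurons and oligodendrocytes both use, was the factor that fell in the RVLM against the PVN, by 1.11 (adjusted p = 2.39e-05). Tcf7l2 and Nkx2-2 were higher in the PVN than in the SON, by 0.81 and 1.27, and the other 4 factors did not pass. For Nkx2-2, 1 of 4 SON arrays was dim. In that comparison 9.02% of all genes were called higher, and with a list this short the count is not read as a result.

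Genes of progenitors and of cells about to make myelin were called in both directions. Of 8 tested, 3 were higher and 3 lower in the RVLM than in the PVN, where 19.3% of all genes were called higher and 26.3% lower. Against the SON 4 were higher and 2 lower, with 20.3% and 25.4% of all genes. Against the NIL 6 were higher and 1 lower, with 30.2% and 37.6% of all genes. With lists this short, the counts against the PVN and SON are not read as a result about these genes. Without PVN array 3, 7 were tested, of which 2 were higher and 3 lower than in the PVN, with backgrounds of 21.5% and 26.7%. Bcas1, made as cells begin to myelinate, averaged 2708 ± 374 in the RVLM, 453 ± 135 in the SON and 16.4 ± 4.03 in the NIL, and exceeded the SON by 2.69 (adjusted p = 7.44e-07). All 5 NIL arrays were dim for Bcas1. Cspg5 and Sox6, of progenitors and other neural cells, fell in the RVLM against the PVN, by 1.37 (adjusted p = 1.11e-05) and 0.79 (adjusted p = 3.94e-04). Vcan, a matrix proteoglycan, differed by 1.01 from the PVN. Between strains, 0 of 15 myelin proteins, 0 of 10 enzymes, 0 of 7 factors and 0 of 9 progenitor genes were called in the RVLM. Of all genes 1.41% were called there. In the list of myelin proteins 4 of 14 were higher in the PVN than in the SON with all arrays, where 9.02% of all genes were called higher, among them Plekhb1 (0.85) and Tppp (0.56). Without array 3 the counts were 2 higher and 2 lower, with backgrounds of 11.6% and 11.4%, and are not read as a result.

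Markers of other cells also differed between the structures. Summed intensity of 10 neuron markers was 21630 to 25650 in the SHR RVLM, 9702 to 10330 in the SON, 10230 to 11590 in the PVN and 3958 to 4367 in the NIL. Summed intensity of 10 astrocyte markers was 16520 to 19670 in the SHR RVLM, 17100 to 19630 in the SON, 12570 to 17700 in the PVN and 3418 to 4091 in the NIL. Of the neuron markers tested, 7 of 10 were higher in the RVLM than in the PVN and 8 of 10 than in the SON. The shares of all genes called higher were 19.3% and 20.3%. Summed intensity of 6 Schwann cell markers, which include Pmp22 and Mal, was 2151 to 2699 in the SHR RVLM and 573 to 664 in the SON. It was 447 to 1027 in the PVN and 786.5 to 892 in the NIL, and the sum of the NIL lay above that of the SON. In WKY the RVLM sums were 19910 to 25030 for neurons and 16690 to 19580 for astrocytes, overlapping those of SHR. The part of these cells in the myelin values was not tested.

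The genes whose pattern lay nearest to the mean of the 8 sheath genes were found by the root mean square difference of centred log2 values over 24 arrays. For 5 of the 8 genes the NIL values in that mean are dim readings, which have no order, so the distances below depend in part on them. Among 10564 genes the median of this distance was 2.49. The nearest was Cplx1, which encodes a synaptic protein, at 0.353, followed by the transporter gene Slc5a11 at 0.496, the neurofilament gene Nefm, also on the neuron list, at 0.497, Bcas1 at 0.504, Olig1 at 0.553 and Enpp2 at 0.571. Trim36, Rbfox1, Mal and Cfap20dc followed at 0.603 to 0.636. Cplx1 averaged 3215 in the SHR RVLM, 574 in the SON, 672 in the PVN and 61.8 in the NIL. The genes nearest to Pdgfra were Sspn at 0.288, PCOLCE2 at 0.310, Pdzrn3 at 0.315, Fxyd1 at 0.317 and Agpat1 at 0.346, where the median gene lay at 0.636. The 24 arrays share structure, strain and scaling, so these distances describe the arrays and carry no test.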

How the data were processed

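Messenger RNA of 24 tissue pools was measured on 1 type of Affymetrix array, after RNA amplification per the labels. The authors deposited linear intensity values made with GCOS 1.2, per the submitters' processing notes; no source used here states its settings. In the deposited intensities the 2% trimmed mean was 100 on every array, array medians were 35.9 to 46.5 and the smallest value was 0.00259, so dim probe sets carry little order. Each value was taken to log2 and each array shifted to a common median. Of 31042 probe sets, 20826 had 1 gene symbol in GEO's platform annotation, 436 several and 9780 none. Probe sets above the 40th percentile of mean log2 intensity over the arrays of a fit were kept, 18625 in each fit. Strains were compared over 10 RVLM arrays and structures over 19 SHR arrays, with limma 3.58.1 in R 4.3.3 (lmFit, eBayes with an intensity trend). The p-values were adjusted by Benjamini-Hochberg over all kept probe sets, and a gene was called at an adjusted p under 0.05. The structure comparisons share arrays. A gene dim on every array of a group, under the 40th percentile of that array, is given against that percentile as a bound.

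The genes and lists were chosen with earlier results of these data known. Named besides the 9 genes were at most 4 called genes of each list and comparison, by size, and the 10 and 5 genes nearest in pattern. Of the list genes, 13 had no probe set with a single symbol and were not analysed here. Ratios of probe sets were compared by exact permutation in scipy 1.17.1 with Python 3.11.15. Alternatives were other scalings, pseudocounts of 16 and 64, other filters, no trend, array weights, a replicate block, the mean of a gene's probe sets, other arrays in the fit and each array left out. The code was tested on simulated data. Each chip is called an independent biological replicate in the series' design text. The labels give no dates or batches, so none was tested, and WKY arrays of other structures were not analysed here.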

Additional observations from a re-analysis of the deposited data

Results flagged for a closer look

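Of 75 sets of arrays tested, each 1 probe set in 1 group, 13 held an array flagged by Dixon's test of the gap over the range. The test used linear intensities, not log2 values, and all flagged arrays lay on the high side. Its rate of about 1 in 20 assumes normally spread values and unrelated sets. These sets share arrays and genes, so the count of 13 is not read against that rate. PVN array 3 was the flagged array in 10 of the 13, and it was the highest in each. Its intensity was 2664 for Mobp, where the other 4 PVN arrays had 267 to 516. On the other Mobp probe sets it was 567, against 60.6 to 94.9, and 172, against 37.4 to 57.7. For Mog it was 423, against 79.9 to 130, and for Cldn11 it was 1967, against 599 to 904. For Ermn it was 259 on one probe set, against 67.6 to 96.5, and 86.2 on another, against 28.6 to 44.3. For Pdgfra it was 561, against 142 to 215. For Mbp it was 3184, against 1867 to 2169, and for Ugt8 it was 71.1, against 54.2 to 57.6.

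The other 3 of the 13 were on 2 arrays of other groups. SON array 2 had an Opalin intensity of 196, where the other SON arrays had 100 to 108. NIL array 4 had 256 for Pdgfra, where the others had 173 to 195, and 20.8 on the Mobp probe set 1370500_a_at, where the others had 3.48 to 7.69, all dim. What set these arrays apart was not tested.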

How the results depend on the processing

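The 63 log2 differences of the 9 genes were recomputed under every alternative, 1355 values in all. Of these, 1295 kept their direction and their side of the threshold, 5 lost a call, 15 gained one and 40 changed sign, all 40 without a call before or after. The count of genes called stayed at 8 for RVLM against NIL and against PVN, at 8 to 9 for RVLM against SON, at 7 to 9 for SON against NIL and at 5 to 7 for PVN against NIL. The lowest of the last 2 came with a fit of the arrays of the pair alone, in which Ermn and Opalin did not pass the filter on low values. For PVN against SON the count was 0, and it was 3 with array weights (Cldn11, Mbp and Pdgfra), 1 with gene means (Cldn11), 5 with the PVN and SON arrays alone without PVN array 3, and 0 to 5 with arrays left out, 4 without PVN array 3 and 1, Mag, without PVN array 5. Between strains the count was 1 with gene means, where Mobp gave -0.51 (adjusted p = 0.00814 in limma). The Mobp probe set 1368263_a_at gave -1.15 (adjusted p = 0.409) in a fit of all 24 arrays, which pools the spread of all groups, and -1.18 to -1.06 otherwise.

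Sign changes lay near 0. Between strains, with values as deposited, Cldn11 gave 0.0059, Ermn 0.0091, Mbp 6e-04 and Ugt8 0.0029. With quantile normalization Cldn11 gave 0.0209, Ermn 0.0487 and Ugt8 0.0405, and with gene means Cldn11 gave 0.0784. With single arrays left out, Cldn11 gave -0.106 to 0.0378, Ermn -0.0965 to 0.0373, Mbp -0.1254 to 0.1049, Mog -0.0509 to 0.0837 and Ugt8 -0.0806 to 0.0026. For Pdgfra, RVLM minus NIL was -0.0369 as deposited and -0.0033 to 0.1318 with arrays left out, RVLM minus PVN was -0.4751 to 0.0798, and PVN minus NIL was -0.0254 to 0.5295. For Cldn11, PVN minus NIL was -0.05 with array weights and -0.0241 to 0.4631 with arrays left out. For PVN minus SON with arrays left out, Mobp gave -0.8646 to 0.024, Mog -0.5608 to 0.0993 and Opalin -0.0554 to 0.3188. There Mobp gave 0.0388 with gene means, and Opalin -0.112 with array weights and -0.0554 with the 2 groups alone without PVN array 3. The causes were not tested.

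With the replicate number as a block the counts of calls were 0 between strains, 8, 8, 9, 9 and 7 between the RVLM, the hypothalamic nuclei and the NIL, and 0 between PVN and SON, the same as without it. Mobp changed sign there, to 0.0681. Deviations of same-numbered arrays correlated at 0.079 to 0.1658 between PVN and SON and at -0.1189 to 0.1325 in the other pairs of groups. Between PVN and SON the mean was 0.1083 for the same number and -0.0291 for different numbers. In the main fits the numbers were not taken to pair the samples, and whether same-numbered PVN and SON pools shared animals was not tested. The number of arrays, the spread that PVN array 3 adds and dim signals in the NIL limit the precision of these values.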
